A study of Mus musculus with 77 samples.

Results

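Mouse liver was profiled by RNA-seq and by ribosome profiling, and 10 apolipoprotein genes were followed through both: Apoa1, Apoa2, Apoa4, Apoa5, Apob, Apoc1, Apoc3, Apoe, Apoh and Apom. They were chosen by name out of 25266 genes in the count tables, because they set very short coding sequences (Apoc1, Apoc3, Apoa2) beside one of the longest in the liver (Apob). Counts came from the CDS (coding sequence) column, with the sequencing runs of a library added up, and all 10 genes passed the filter on low counts that left 10696 genes for testing.

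Apolipoproteins are the proteins of lipoprotein particles, which carry triglycerides and cholesterol in the blood. The liver secretes very-low-density lipoprotein (VLDL), built on a single copy of apolipoprotein B per particle, and most of the apolipoprotein A-I and A-II around which high-density lipoprotein (HDL) forms. The small exchangeable apolipoproteins move between particles and set how fast lipases and receptors act on them. In mice, the Apob mRNA is also edited in the liver, so that full-length and shorter protein are both made.

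The study asked how the iron regulatory proteins IRP1, encoded by Aco1, and IRP2, encoded by Ireb2, shape RNA abundance and translation over the day. Livers were taken from 24 mice in 8 groups of 3: Aco1-/- mice and their Aco1+/+ controls, and Ireb2-/- mice and their Ireb2+/+ controls, each at ZT5 or ZT12 (Zeitgeber time, hours after lights on). All were male C57BL/6J mice aged 12 to 24 weeks on normal chow, and the knockout alleles were Aco1 tm1.1Mwh and Ireb2 tm1.2Mwh. The Aco1 allele disrupts the reading frame but still gives an mRNA, and the study saw no decrease of Ireb2 RNA in Ireb2-/- livers. Each liver gave 2 libraries, one of total RNA and one of ribosome-protected fragments (RPFs), the stretches of mRNA shielded by a translating ribosome. Each liver is a separate mouse, so p-values measure the spread between mice.

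RNA libraries held 852293 to 3993492 counts in coding sequences (median 2103622) and RPF libraries 2448915 to 13439600 (median 6784598). The coding sequence took 48.3% to 66.7% of all counts in the tables in RNA libraries and 91.9% to 96.1% in RPF libraries. RPFs of the targeted genes followed the labels: Aco1 was at 79.8 ± 4.46 CPM (library-scaled counts, with upper-quartile scaling; mean ± SD, n = 3) in Aco1-/- livers at ZT5, against 410.0 ± 70.2 in Aco1+/+, and Ireb2 was at 37.2 ± 4.41 CPM in Ireb2-/- livers at ZT12, against 73.8 ± 10.1 in Ireb2+/+. All 8 hepatocyte markers (Alb, Ttr and others) were present, with a summed RNA level of 141460 to 195999 CPM per library, while 7 macrophage markers summed to 366 to 660, 6 endothelial markers to 405 to 563, 6 stellate cell markers to 426 to 689 and 5 cholangiocyte markers to 10.6 to 63.6. Erythroid markers (4 of 5 in the files) summed to 2.15 to 120 CPM and lymphocyte markers (2 of 5) to 0 to 3.07. Fabp2, the 1 enterocyte marker of 4 in the files, was at 25.7 to 91.5. Libraries also differed in how far they lay from the mean of the other 2 livers of their group, as a median over all genes tested on the log2 scale. In RNA the distance was greatest for Ireb2+/+ ZT5 replicate 3 (0.38), followed by Aco1-/- ZT12 replicates 3 and 1 (0.34 and 0.33), Aco1+/+ ZT5 replicate 3 and Ireb2-/- ZT12 replicate 3 (0.31 each), and the other 19 reached at most 0.29. In RPFs it was greatest for Aco1+/+ ZT5 replicate 3 (0.36) and Aco1-/- ZT5 replicate 3 (0.30), and the other 22 reached at most 0.28.

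Together the 10 genes made up 6.78 ± 0.31% of all CDS counts in RNA libraries and 7.94 ± 0.75% in RPF libraries (mean ± SD, n = 24 livers). These shares are not divided by length, so a long coding sequence weighs more. Apob, the structural protein of VLDL, alone took 2.97% of RNA counts and 1.29% of RPF counts. Apoe, the ligand by which remnant particles are cleared through LDL receptor family members, took 1.80% of RNA and 2.97% of RPF counts. Apoa1, the main HDL protein and activator of lecithin-cholesterol acyltransferase, took 0.837% and 1.39%. Apoc1, a small inhibitor of lipoprotein lipase, took 0.126% of RNA counts and 0.412% of RPF counts. The summed share of RPFs was lowest in Aco1-/- livers at ZT12, at 6.61 ± 0.49% (n = 3), against 8.58 ± 0.71% in Aco1-/- livers at ZT5; in RNA the same groups stood at 6.35 ± 0.30% and 7.02 ± 0.07%.

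The genes also differed in translation efficiency (TE), the log2 ratio of scaled RPF CPM to scaled RNA CPM of the same liver. Both terms come from the same coding sequence, but its length need not cancel in full. Of counts within the mRNA, the CDS held a median of 53.9% in RNA and 98.7% in RPFs for Apoc1. For Apob it held 97.9% and 99.4%. The part of length in the order of TE was not tested. Small exchangeable apolipoproteins led: Apoc1 had a TE of 2.17 ± 0.34 (mean ± SD, n = 24) and Apoc3, an inhibitor of lipoprotein lipase and of remnant uptake, 1.78 ± 0.22. Apob came last at -0.76 ± 0.31. Between them stood Apoh (beta-2-glycoprotein I, which binds anionic phospholipids) at 1.41 ± 0.12, Apoa2, the second HDL protein, at 1.26 ± 0.20, Apom, the HDL carrier of sphingosine-1-phosphate, at 1.25 ± 0.23, Apoa1 at 1.20 ± 0.19, Apoe at 1.19 ± 0.19, Apoa5, a promoter of triglyceride lipolysis, at 0.92 ± 0.18, and Apoa4, a protein of chylomicrons and HDL made mostly by the intestine, at 0.66 ± 0.13. Without Ireb2+/+ ZT5 replicate 3 the mean was 2.22 ± 0.25 for Apoc1 and -0.80 ± 0.25 for Apob (n = 23).

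**Figure D1:**
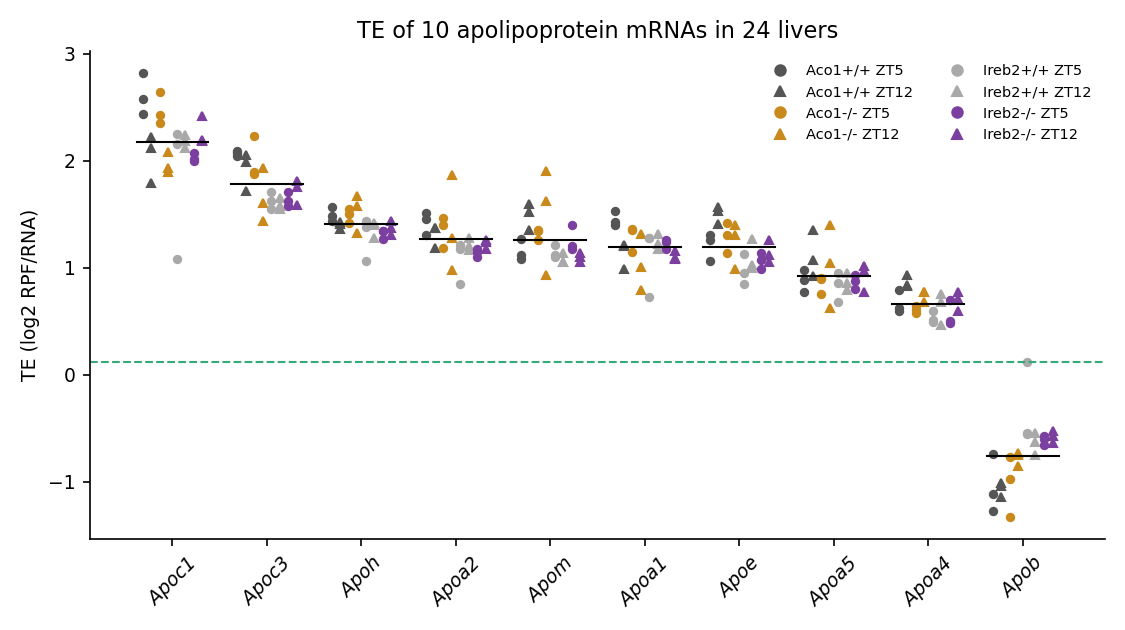
Translation efficiency (log2 RPF/RNA, vertical axis) of the 10 genes, each point 1 of 24 livers and each bar the mean. Apoc1 and Apoc3 sit highest, with means of 2.17 and 1.78, and Apob lies below 0 in all livers but Ireb2+/+ ZT5 replicate 3.

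The order was nearly the same in every group. Apoc1 was first and Apoc3 second by group mean in all 8 groups, and Apoa5, Apoa4 and Apob took the last places in all 8. The middle places changed hands: Apoh and Apoa2, Apoa2 and Apom, Apom and Apoa1, and Apoa1 and Apoe had mean differences within a liver smaller than the SD of those differences (Apoh minus Apoa2, for example, 0.14 ± 0.20). Apoc1 exceeded Apoc3 in 21 of 24 livers, by 0.40 ± 0.28, and Apoa4 exceeded Apob in 24 of 24, by 1.42 ± 0.37. Among all genes tested in the same liver, Apoc1 was at the 98.6th percentile of TE (median over livers, range 94.0 to 99.4) and Apob at the 23.5th (range 11.5 to 52.1, or to 27.8 without Ireb2+/+ ZT5 replicate 3). The order depended on which RNA counts were used: with RNA counted over all count columns in place of the CDS, the mean TE of Apob turned positive, 0.30, and its percentile by mean TE went from 19.4 to 59.7, while Apob stayed last and Apoc1 first of the 10 genes. Apoc3 went from place 2 to place 4 under that setting, at 1.89, behind Apoh (2.29) and Apoa1 (2.17), and Apoa4 (1.46) came before Apoa5 (1.35).

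Apob had a higher TE in the Ireb2 line than in the Aco1 line. The 12 livers of the Aco1 line ran from -1.33 to -0.73 (median -0.996) and the 12 of the Ireb2 line from -0.75 to 0.12 (median -0.58), or to -0.52 without Ireb2+/+ ZT5 replicate 3. The other 9 genes all had the higher mean TE in the Aco1 line. How many of all genes did so was not counted, so this is not shown to be particular to apolipoproteins. Among these 9 genes the gap between the lines was widest for Apoc3, with means of 1.91 ± 0.23 in the Aco1 line and 1.64 ± 0.08 in the Ireb2 line (n = 12 each). It was smallest for Apoa1, with 1.23 ± 0.21 and 1.17 ± 0.16. Without Ireb2+/+ ZT5 replicate 3 the Apoa1 mean of the Ireb2 line was 1.205 ± 0.077 (n = 11). No test was run on these levels, and the mouse line cannot be told apart from the cohort of mice it belongs to.

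Where counts fell within the mRNA also differed among the genes. The count tables do not name their columns, and those on either side of the CDS column were read as 5′ UTR and 3′ UTR; shares are of those columns together. At least 94.6% of RPFs of every gene but Apoa4 lay in the coding sequence, in every liver. For Apoa4 the 5′ UTR held 6.80% of RPFs (median, range 4.02 to 11.6), whereas the medians of the other genes reached at most 1.71% (Apoe). In the 3′ UTR no gene had 1% of its RPFs in any liver. RNA counts did reach the 3′ UTR, and in unequal shares: 35.6% of those of Apoa5, 33.8% of those of Apoc1 and 26.0% of those of Apoc3, but 1.91% of those of Apob (medians over 24 livers).

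The first question was whether loss of IRP1 or IRP2 altered the apolipoproteins. None of the 10 genes passed the threshold (edgeR quasi-likelihood test, adjusted p under 0.05 over all 10696 genes) in any of 12 comparisons of knockout with control, 120 gene tests in all. At an unadjusted p under 0.05 there were 6 of 120, all in the Aco1 line, while 5.98% of the tests of all genes fell under that level; DESeq2 called none either, and neither did limma on TE per liver. Few genes of any kind passed. In the Aco1 line the share called over all genes was 0% for RNA, 0.00935% for RPFs and 0.00935% for TE at ZT5, and 0.00935%, 0.299% and 0.0935% at ZT12. In the Ireb2 line it was 0.00935% for RNA, 0.0654% for RPFs and 0.00935% for TE at ZT5, and 0.0187%, 0.028% and 0% at ZT12. The change in size between knockout and control had a median of 0.10 (log2, without sign) over the 120 tests of the members and of 0.18 over those of all genes. Some marker sums did separate the genotypes: erythroid markers at ZT5 in the Aco1 line (44.8 to 83.7 CPM in Aco1+/+ and 8.76 to 24.5 in Aco1-/-) and at ZT12 in the Ireb2 line (23.5 to 34.1 and 16.7 to 23.3), stellate cell markers at ZT12 in the Aco1 line (551 to 568 and 489 to 549), lymphocyte markers at ZT5 in the Ireb2 line (0 to 1.01 and 1.28 to 2.85), and hepatocyte markers in the Ireb2 line at ZT5 (145909 to 168615 and 170773 to 184302) and ZT12 (158966 to 173828 and 181953 to 195999). With 3 livers a group, no overlap corresponds to an exact permutation p of 0.1. All marker lists were looked over in each comparison, so some separations can be found without a shift in cells. The part of these markers in the comparisons was not tested.

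Apoa1 came nearest to the threshold. Its RPF level at ZT12 was 16956, 15892 and 18335 CPM in Aco1+/+ livers and 12486, 12271 and 13291 CPM in Aco1-/- livers. The groups did not overlap, yet the difference of -0.43 ± 0.15 (log2 fold change ± SE) had an adjusted p of 0.246 by edgeR, and of 0.0751 to 0.565 over its 13 alternatives. An exact permutation test of 3 livers against 3 cannot go below 0.1. In RNA at ZT12 the Apoa1 difference was -0.33 ± 0.15, and in RPFs at ZT5 -0.36 ± 0.15, where livers of both genotypes overlapped. Apoe RPFs differed by -0.37 ± 0.15 at ZT12 (edgeR adjusted p = 0.304), from 35079.5, 35256 and 35309.8 CPM in Aco1+/+ to 23198, 28204 and 30177 CPM in Aco1-/- livers. The remaining genes with an unadjusted p under 0.05 were Apoe and Apob in TE at ZT12, with differences of -0.27 ± 0.11 and 0.29 ± 0.12 (edgeR adjusted p = 0.624 and 0.671).

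**Figure D2:**
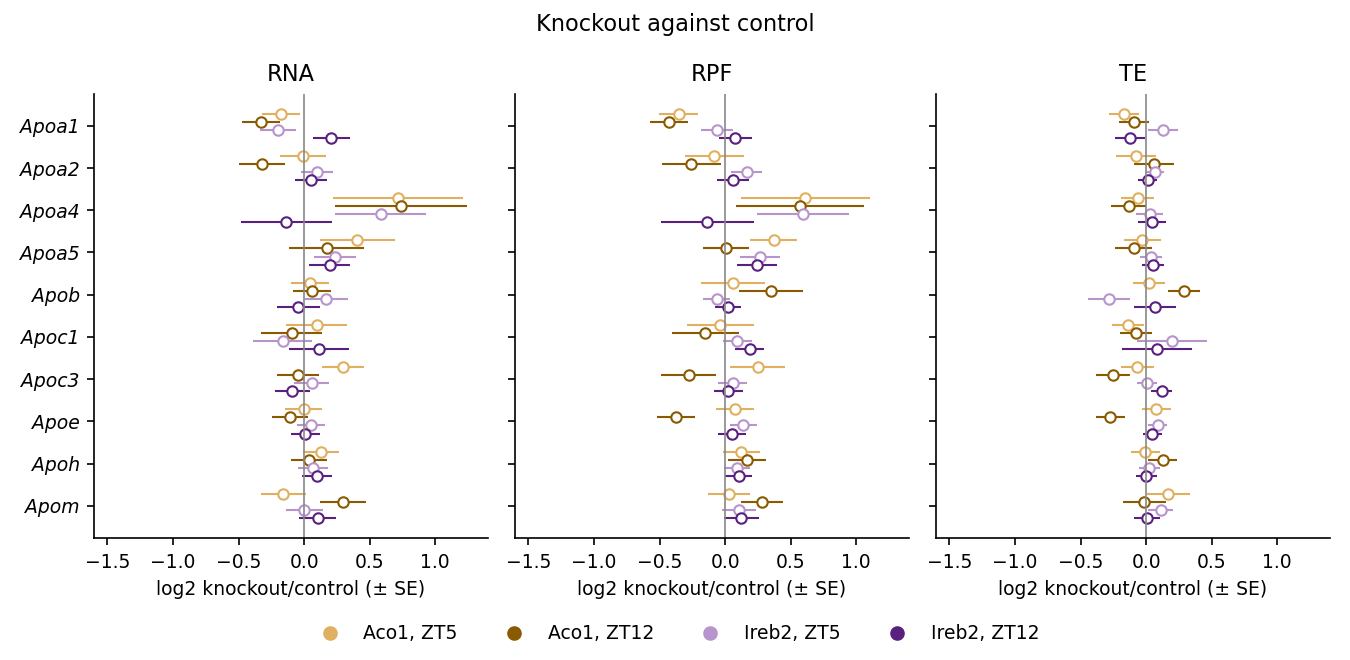
Difference between knockout and control (log2, with its standard error) of the 10 genes in RNA, RPF and TE, at ZT5 and ZT12 in the Aco1 and Ireb2 lines. No difference passed the threshold, and the widest, of 0.74 for Apoa4 RNA, has an SE of 0.50.

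The largest differences belonged to Apoa4, which was also the least steady gene: its RNA level ran from 85.7 to 400.0 CPM over 24 livers, an SD of 0.61 on the log2 scale, where the other 9 genes had SDs of 0.17 to 0.33. In the Aco1 line at ZT5, Apoa4 RNA was at 144.1, 101 and 267 CPM in Aco1+/+ and 362, 261 and 209 CPM in Aco1-/- livers, a difference of 0.72 ± 0.49. In the Ireb2 line at ZT5 it was at 183, 199 and 189.8 CPM in Ireb2+/+ and 400.0, 250.0 and 207 CPM in Ireb2-/- livers, a difference of 0.58 ± 0.34. Only in the latter comparison did the groups separate. At ZT12 the differences were 0.74 ± 0.50 in the Aco1 line and -0.13 ± 0.35 in the Ireb2 line, with overlapping groups. Fabp2, the enterocyte marker, was at 73.3 to 84.7 CPM in Aco1+/+ and 25.7 to 62.2 in Aco1-/- livers at ZT12, without overlap, and its part in these values was not tested. Apoa4 RPFs ran alongside its RNA, with differences of 0.61 ± 0.49 and 0.59 ± 0.35 at ZT5, and its TE differed by -0.07 ± 0.13 and 0.03 ± 0.10. A single liver weighed on these values: without Aco1-/- ZT12 replicate 3 the ZT12 RNA difference of the Aco1 line was 0.08 and without Aco1-/- ZT12 replicate 2 it was 1.09, while that at ZT5 ran from 0.44 without Aco1+/+ ZT5 replicate 2 to 1.18 without Aco1+/+ ZT5 replicate 3. In the Ireb2 line at ZT5 the difference without Ireb2-/- ZT5 replicate 1 was 0.26 in RNA and 0.31 in RPFs. None of these was called.

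The second comparison, ZT12 against ZT5, showed changes of 3 apolipoproteins, all of them decreases and all in the Aco1 line. Apoc3 fell in RNA of both genotypes and in RPFs of Aco1-/- livers, Apoe fell in RNA and RPFs of Aco1-/- livers, and Apom fell in RNA of Aco1+/+ livers. These were 6 of 120 gene tests; 20 of 120 had an unadjusted p under 0.05, against 15.6% of the tests of all genes, and DESeq2 called 7. In the Aco1 line the members called were 2 of 10 for RNA in each genotype, where 7.05% of all genes were called in Aco1+/+ and 5.15% in Aco1-/- livers. For RPFs they were 0 of 10 in Aco1+/+, against 6.64% of all genes (1 of 10 at an unadjusted p under 0.05, and 1 by DESeq2), and 2 of 10 in Aco1-/-, against 12.1%. edgeR called none for TE, where the shares were 0.0187% and 0.15%; 7 of the 20 TE tests had an unadjusted p under 0.05, against 7.77% of the tests of all genes, and DESeq2 called 1, Apoc1 in Aco1+/+ livers. No member was called in the Ireb2 line, while 2.29% of all genes were called for RNA, 7.53% for RPFs and 0.533% for TE in Ireb2+/+ livers and 2.77%, 5.73% and 0.00935% in Ireb2-/- livers. Of those 60 tests 2 had an unadjusted p under 0.05, against 13.9% of the tests of all genes: Apoa1 RNA (0.34 ± 0.14) and Apoa2 RNA (-0.26 ± 0.12) in Ireb2-/- livers, and DESeq2 called none. Both rested in part on Ireb2-/- ZT12 replicate 2, without which they were 0.15 and -0.13. Cholangiocyte markers summed to 31.5 to 44.7 CPM at ZT5 and 13.8 to 14.0 at ZT12 in Aco1+/+ livers, where Apoc3 and Apom RNA fell, and to 29.4 to 46.8 and 10.6 to 31.9, with overlap, in Aco1-/- livers. In Ireb2-/- livers they went from a range of 32.2 to 63.6 CPM at ZT5 to one of 17.96 to 28.0 at ZT12, and endothelial markers from 501 to 563 CPM down to 432 to 444. The limit on such separations given for the genotypes holds here too, and the part of these cells in the changes was not tested.

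**Figure D3:**
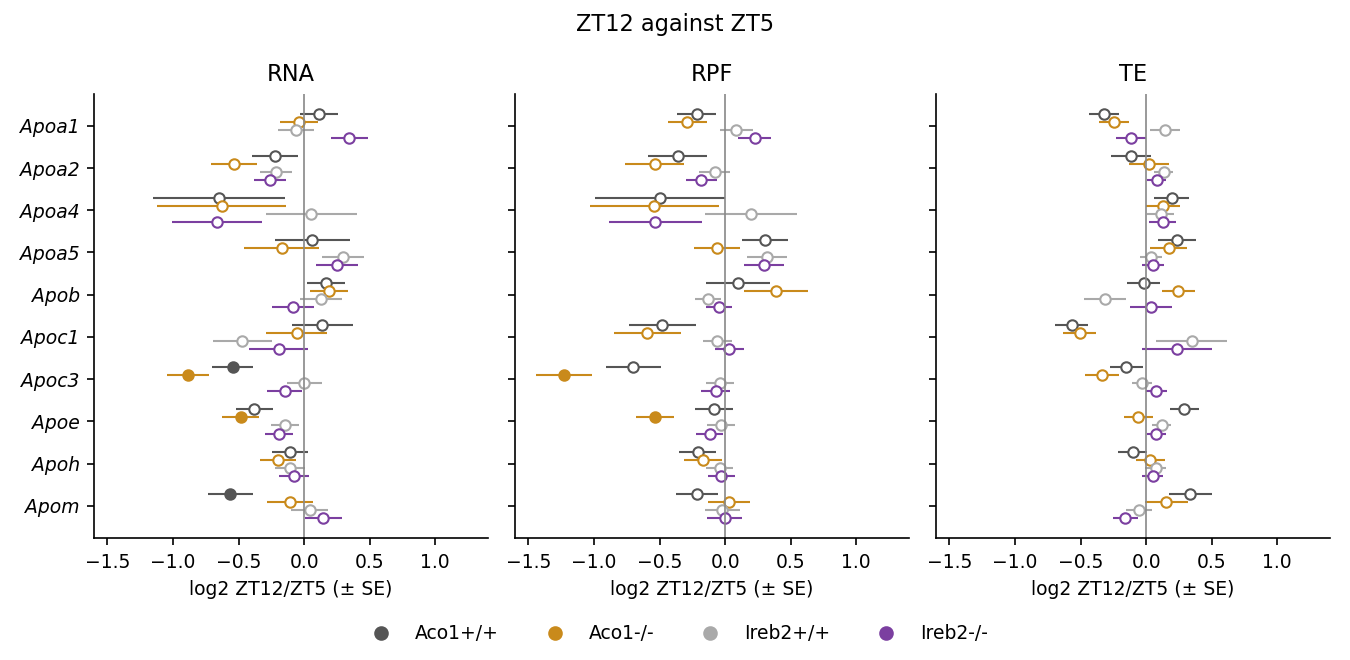
Change from ZT5 to ZT12 (log2, with its standard error) of the 10 genes in RNA, RPF and TE in each of the 4 genotypes, with the changes that passed the threshold marked. The marked points are Apoc3, Apoe and Apom in the Aco1 line, the lowest being Apoc3 RPF in Aco1-/- livers at -1.23.

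Apoc3 changed most. Its RPF level was 6339.8, 5246 and 3301 CPM in Aco1-/- livers at ZT5 and 1655, 2046 and 2664 CPM at ZT12, so that the highest liver at ZT12 lay under the lowest at ZT5. RPFs were down to 0.428 of the ZT5 level, a log2 change of -1.23 ± 0.21 (edgeR adjusted p = 0.00165), and the call held in 13 of 13 alternatives, with changes of -1.45 to -1.01 and adjusted p of 2.84e-06 to 0.0115. RNA of the same livers went from 1349, 1430.1 and 886 CPM to 610.4, 671 and 697 CPM, with no overlap, a change of -0.89 ± 0.16 (edgeR adjusted p = 0.000392). This call was lost in 1 of 14 alternatives, RNA over all count columns (-0.61, edgeR adjusted p = 0.0672; range over the alternatives 1.04e-05 to 0.0672). Since whole livers were measured, fewer expressing cells and less RNA per cell cannot be told apart.

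In Aco1+/+ livers Apoc3 RNA was 1051, 1101 and 832 CPM at ZT5 and 676, 589 and 781 CPM at ZT12. The groups did not overlap and the change of -0.55 ± 0.16 passed the threshold (edgeR adjusted p = 0.0288). It held in 9 of 14 alternatives, with adjusted p from 0.00555 to 0.185. The call was lost without Aco1+/+ ZT12 replicate 1 (-0.54), ZT12 replicate 2 (-0.45), ZT5 replicate 1 (-0.50) or ZT5 replicate 2 (-0.47), and with RNA over all count columns (-0.50). RPFs went from 4478, 4535 and 3508 to 2814, 2334 and 2562 CPM, also without overlap, a change of -0.70 ± 0.21 that missed the threshold (edgeR adjusted p = 0.0552; 0.00605 to 0.193 over 13 alternatives, called in 4, among them without Aco1+/+ ZT5 replicate 3, -0.81).

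The decline of Apoc3 was not shown to differ between Aco1-/- and Aco1+/+ livers: the difference of the changes was -0.34 ± 0.22 in RNA and -0.53 ± 0.30 in RPFs (edgeR adjusted p = 0.886 and 0.885). Over all 10 genes no such difference passed, and over all genes the share called was 0% for RNA, 0% for RPFs and 0.028% for TE in the Aco1 line and 0%, 0% and 0% in the Ireb2 line. Of these 60 tests, whose differences ran from -0.73 to 0.46, 3 had an unadjusted p under 0.05, against 4.87% of the tests of all genes: Apoe RPF (-0.45 ± 0.21) and Apoe TE (-0.35 ± 0.15) in the Aco1 line and Apoa1 RNA (0.41 ± 0.20) in the Ireb2 line. DESeq2 called none of the 60.

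Apoc3 stayed near its ZT5 level in the Ireb2 line. Its RPFs were 2712, 3215 and 2692 CPM at ZT5 and 2604, 2671 and 3116 CPM at ZT12 in Ireb2+/+ livers, and 3274, 2937 and 2754 and 2859, 2613 and 3056 CPM in Ireb2-/- livers. The times overlapped in both genotypes, with changes of -0.04 ± 0.11 and -0.07 ± 0.11. The difference between the lines was tested directly, averaged over the genotypes, in a fit of all 8 groups that was added after the data were seen. Apoc3 RPFs declined more in the Aco1 line, by a log2 difference of -0.91 ± 0.18 (edgeR adjusted p = 0.00664), and the call held with another scaling and without each of the 24 mice in turn (-1.02 to -0.80, adjusted p 0.000432 to 0.0191). Apoc3 was the 1 of 10 genes called in RPFs, where 3.19% of all genes were called; for RNA the difference was -0.64 ± 0.15 (edgeR adjusted p = 0.179) and for TE -0.27 ± 0.11 (0.361), and no member was called where the shares over all genes were 0.00935% and 0.0841%. At an unadjusted p under 0.05 there were 3 members in RNA, 3 in RPFs and 4 in TE, against 8.71%, 19.1% and 9.82% of all genes; no other tool was run on this difference. Leaving out 1 liver added calls in 4 of 24 cases: Apoc3 RNA (-0.74) and Apoc1 RPFs without Aco1-/- ZT5 replicate 3, Apoa1 and Apoc1 RPFs without Aco1+/+ ZT5 replicate 3, Apoc3 TE (-0.33) and Apom TE without Aco1-/- ZT12 replicate 3, and Apoc1 TE without Ireb2+/+ ZT5 replicate 3. Line and cohort cannot be told apart here.

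**Figure D4:**
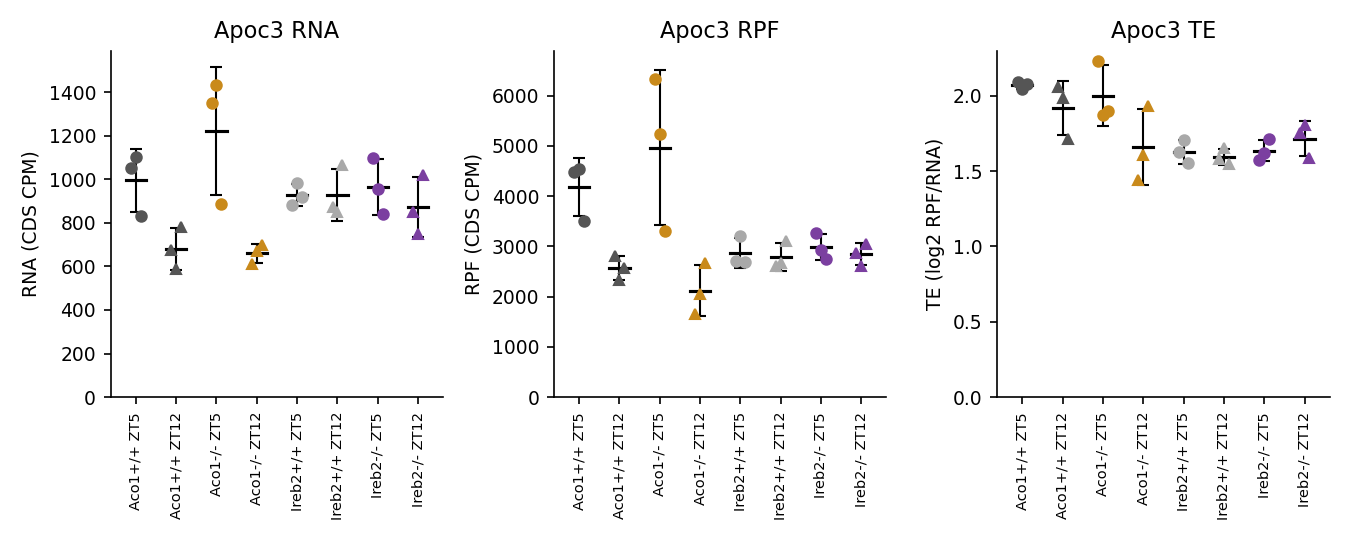
Apoc3 RNA and RPF levels (CPM after upper-quartile scaling) and TE (log2) in each of 24 livers by genotype and time, with bars at the group means. In the Aco1 line RPFs lie between 3301 and 6340 CPM at ZT5 and between 1655 and 2814 at ZT12, while ZT5 and ZT12 overlap in the Ireb2 line.

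With CDS counts, Apoc3 TE moved less than its RNA in Aco1-/- livers, by -0.34 against -0.89, and the 2 changes were not tested against each other. Apoc3 TE was 2.23, 1.87 and 1.90 in Aco1-/- livers at ZT5 and 1.44, 1.61 and 1.93 at ZT12, with overlap. The change of -0.34 ± 0.13 did not pass (edgeR adjusted p = 0.485, 0.00528 to 0.998 over 16 alternatives). It was called without Aco1-/- ZT12 replicate 3 (-0.47) and with RNA over all count columns (-0.58, 0.00528). Under the latter setting the RNA change was -0.61 and was not called, so TE and RNA moved by similar amounts there. In the RNA library of Aco1-/- ZT12 replicate 3 the 3′ UTR held 42.6% of Apoc3 counts, where the next highest liver had 32.6%, and 52.2% of Apoa2 counts, where the next highest had 25.2%. The part of this shift in the TE result was not tested.

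Apoc3 lies in a cluster on chromosome 9 with Apoa1, Apoa4 and Apoa5 (chr9:46228630-46230469 for Apoa1, chr9:46233050-46235636 for Apoc3, chr9:46240844-46243458 for Apoa4 and chr9:46268608-46271921 for Apoa5, GRCm38.p6). With all livers its neighbours did not pass in either genotype of the Aco1 line. Apoa5 RNA changed by 0.06 ± 0.28 in Aco1+/+ and -0.17 ± 0.28 in Aco1-/- livers, and Apoa4 RNA by -0.65 ± 0.50 and -0.63 ± 0.49. At ZT12 Apoa5 RNA was at 938, 980.3 and 2033 CPM in Aco1-/- livers, so that the third liver was the highest. Without it the Apoa5 change was -0.63 and passed (edgeR adjusted p = 0.0308), whereas without ZT12 replicate 1 it was 0.020. Apoa1 RNA changed by 0.11 ± 0.15 in Aco1+/+ and -0.04 ± 0.15 in Aco1-/- livers, and Apoa1 RPFs by -0.22 ± 0.15 and -0.29 ± 0.15. Apoc1 and Apoe are likewise neighbours, at chr7:19689480-19692659 and chr7:19696244-19701310.

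Apoe RNA fell in Aco1-/- livers from 16441, 18297 and 13674 CPM at ZT5 to 11704, 11437 and 11461 CPM at ZT12, and its RPFs from 44010.4, 40289.8 and 33850.0 to 23198, 28204 and 30177 CPM. Neither pair of groups overlapped. The changes were -0.48 ± 0.14 and -0.53 ± 0.15 (edgeR adjusted p = 0.0340 and 0.0231). Both calls were thinner than those of Apoc3: RNA held in 7 of 14 alternatives (adjusted p 0.0115 to 0.152) and RPF in 8 of 13 (0.00838 to 0.114). When 1 of the 6 livers was left out, the RNA call survived only without Aco1-/- ZT5 replicate 3 (-0.59) and was lost without any of the other 5 (-0.50 to -0.38). The RPF call survived without ZT5 replicate 3 (-0.63) and without ZT12 replicate 3 (-0.62), and was lost without ZT5 replicate 1 (-0.45), ZT5 replicate 2 (-0.52), ZT12 replicate 1 (-0.43) or ZT12 replicate 2 (-0.56). In Aco1+/+ livers Apoe RNA went from 17093, 18123 and 13332 to 11841, 12186 and 13298 CPM, a change of -0.38 ± 0.14 that did not pass (edgeR adjusted p = 0.0992; 0.0269 to 0.390 over 14 alternatives, called in 3, among them without Aco1+/+ ZT5 replicate 3, -0.50). Apoe RPFs of Aco1+/+ livers changed by -0.09 ± 0.15, with overlapping groups, and Apoe TE by 0.29 ± 0.11 there (edgeR adjusted p = 0.514) and by -0.06 ± 0.11 in Aco1-/- livers.

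Apom RNA in Aco1+/+ livers was 271, 292 and 180.0 CPM at ZT5 and 155, 165 and 184 CPM at ZT12. ZT5 replicate 3 was as low as the ZT12 livers, so the groups overlapped, and the change of -0.56 ± 0.17 passed narrowly (edgeR adjusted p = 0.0420, 0.00396 to 0.271 over 14 alternatives, of which 6 kept the call). Without that replicate the change was -0.74 and still called, and without any of the other 5 livers the call was lost (-0.63 to -0.43). Apom RPFs changed by -0.22 ± 0.16 in the same livers and TE by 0.34 ± 0.16 (edgeR adjusted p = 0.660), neither of which passed. In Aco1-/- livers Apom changed by -0.11 ± 0.17 in RNA and 0.03 ± 0.16 in RPFs, with overlapping groups.

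Apoc1 had the lowest adjusted p in TE. In Aco1+/+ livers its TE was 2.82, 2.58 and 2.43 at ZT5 and 1.79, 2.22 and 2.12 at ZT12, and in Aco1-/- livers 2.64, 2.36 and 2.43 and 1.93, 2.08 and 1.89. Neither pair overlapped, all 6 livers at ZT5 lying above all 6 at ZT12. The changes were -0.57 ± 0.12 (edgeR adjusted p = 0.0942, 0.00207 to 1.00 over 16 alternatives, called in 4) and -0.51 ± 0.12 (0.0808, 0.0193 to 0.986, called in 3), so neither passed. The first was called without Aco1+/+ ZT5 replicate 3 (-0.65) and the second without Aco1-/- ZT12 replicate 3 (-0.47). In the Ireb2 line the changes were 0.35 ± 0.27 in Ireb2+/+ and 0.23 ± 0.27 in Ireb2-/- livers. The ZT5 value of Ireb2+/+ replicate 3 was 1.08, against 2.25 and 2.15 in its group, and without that liver the change in Ireb2+/+ livers was -0.026. The difference between the lines was -0.83 ± 0.21 and did not pass with all livers (edgeR adjusted p = 0.153); without that liver it was smaller, -0.64, and passed (edgeR adjusted p = 0.00043). It did not pass without any 1 of the other 23 livers (adjusted p up to 0.279).

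Setting the shortest beside the longest coding sequence brought out part of the Aco1 line livers at ZT5 in RPFs and a single library in RNA. The log2 ratio of Apoc1 to Apob RPFs was -0.59, -0.31 and -2.21 in Aco1+/+ livers at ZT5 and -0.13, -1.10 and -2.19 in Aco1-/- livers at ZT5. Of these 6 livers, replicates 1 and 2 of both genotypes lay above the other 20 livers of the study, which ran from -2.22 to -1.35. Replicate 3 of both genotypes lay at the low end of that range. In RNA a different liver stood apart, Ireb2+/+ ZT5 replicate 3 at -2.91, against -5.38 to -4.10 in the other 23.

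**Figure D5:**
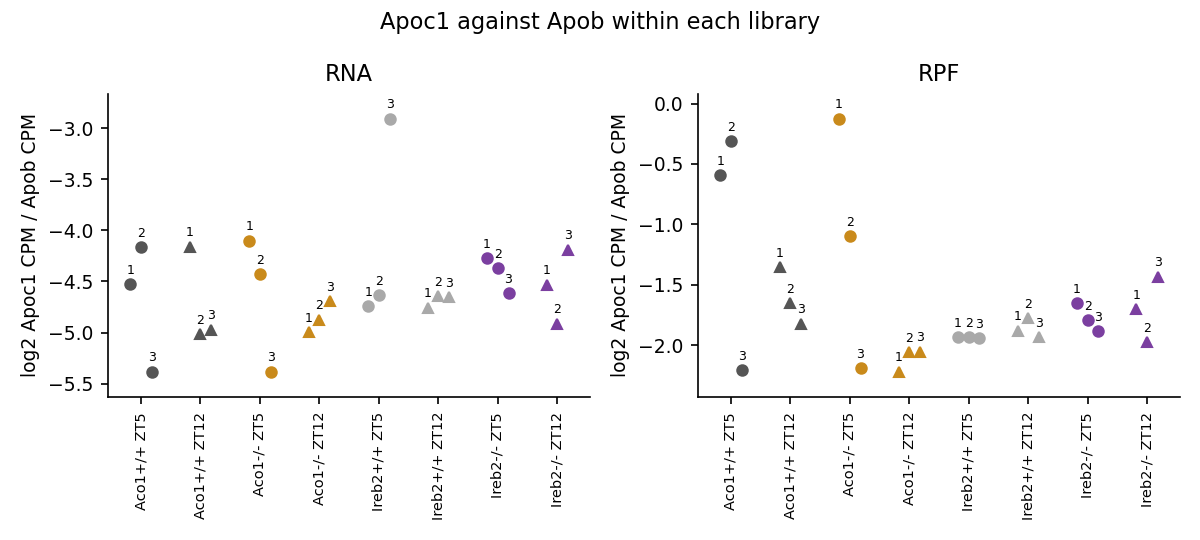
Log2 ratio of Apoc1 to Apob counts (scaled CPM, not divided by length) in the RNA and RPF library of each of 24 livers, by group. Replicates 1 and 2 of both Aco1 line groups at ZT5 lie between -1.10 and -0.13 in RPFs, and Ireb2+/+ ZT5 replicate 3 lies at -2.91 in RNA.

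Both genes contributed to these ratios. Apob RPFs were 11091, 8957 and 17618 CPM in Aco1+/+ livers at ZT5 and Apoc1 RPFs 7358, 7216 and 3817 CPM, so Apob was low where Apoc1 was high. In Aco1-/- livers at ZT5 the values were 9215, 11714 and 18373 CPM for Apob and 8442, 5477 and 4021 CPM for Apoc1. Replicate 3 was the highest for Apob and the lowest for Apoc1 in both groups. In Ireb2+/+ livers at ZT5, Apob RNA was 24584, 27456 and 14136 CPM and Apoc1 RNA 919.5, 1108 and 1881 CPM, with the third liver at both extremes. In that same RNA library the CDS took 78.9% of Apoc1 counts, where the next highest liver had 63.7%.

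These livers bear on the time comparison of RPFs. Without Aco1+/+ ZT5 replicate 3, 3 members were called in Aco1+/+ livers (Apoa2, Apoc3 and Apoc1) in place of 0, and without Aco1-/- ZT5 replicate 3, 5 members in Aco1-/- livers (Apoe, Apoa2, Apob, Apoc3 and Apoc1) in place of 2. Without ZT5 replicate 1 or replicate 2 of a genotype, the count stayed at 0 in Aco1+/+ livers and fell to 1 in Aco1-/- livers, where Apoc3 kept its call and Apoe lost it. Counts over all genes moved the same way. The 710 genes called in Aco1+/+ livers became 1032 without ZT5 replicate 3 and 299 and 332 without replicates 1 and 2, and the 1293 of Aco1-/- livers became 1600, 531 and 849. Apoc1 RPFs in Aco1-/- livers changed by -0.59 ± 0.26 with all livers (edgeR adjusted p = 0.146), by -0.81 without ZT5 replicate 3 and by -0.26 without ZT5 replicate 1. Over the 24 livers Apob and Apoc1 were inversely related in RPFs (Pearson r = -0.81) and in RNA (r = -0.70, or -0.48 over the 23 livers other than Ireb2+/+ ZT5 replicate 3), while Apoa2 and Apoc1 ran together in RPFs (r = 0.88), Apoa2 and Apoe in RNA (r = 0.85) and Apoc3 and Apoe in RNA (r = 0.82). These pairs are among the most extreme of 45 per measure, whose median r was 0.18 in RNA and 0.25 in RPFs. These are descriptions over n = 24 livers that share groups and scaling.

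Among the remaining genes, Apoh RNA lay between 1204 and 1799 CPM and its RPFs between 3375 and 5055 over all 24 livers, the smallest spread of the 10 genes in both (SDs of 0.17 and 0.15 on the log2 scale). Over RNA, RPFs and TE its differences between genotypes ran from -0.0066 to 0.17 and its changes from ZT5 to ZT12 from -0.21 to 0.07, none of which passed. Apoa2 RNA ran from 2812 to 6062 CPM; its change from ZT5 to ZT12 was -0.54 ± 0.18 in Aco1-/- livers (edgeR adjusted p = 0.0808, 0.0154 to 0.779 over 14 alternatives). It was called with a replicate block (-0.53) and without Aco1-/- ZT5 replicate 3 (-0.67), and was -0.10 with RNA over all count columns. Apoa2 RPFs of the same livers changed by -0.54 ± 0.23 (edgeR adjusted p = 0.135) and were called without Aco1-/- ZT5 replicate 3 (-0.73). Apoa5 RPFs ran from 1594 to 3130 CPM, with changes of 0.30 ± 0.18 in Aco1+/+, -0.06 ± 0.18 in Aco1-/-, 0.32 ± 0.15 in Ireb2+/+ and 0.29 ± 0.15 in Ireb2-/- livers, none of which passed. Apob RNA changed by 0.17 ± 0.14 and 0.19 ± 0.14 from ZT5 to ZT12 in Aco1+/+ and Aco1-/- livers, with overlapping groups.

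Of 57 other genes of lipoprotein assembly, receptors, lipases, regulation and further apolipoproteins, 55 were tested and none was called between genotypes in RNA, RPFs or TE. From ZT5 to ZT12, 2 rose and 2 fell in RNA of Aco1+/+ livers, 7.27% of the list against 7.05% of all genes, and 3 rose and 2 fell in Aco1-/- livers, 9.09% against 5.15%. In RPFs 5 rose and 2 fell in Aco1+/+ livers, 12.7% against 6.64%, and 4 rose and 5 fell in Aco1-/- livers, 16.4% against 12.1%. In the Ireb2 line none was called in RNA of Ireb2+/+ livers, against 2.29% of all genes, and 3 fell in RNA of Ireb2-/- livers, 5.45% against 2.77%. In RPFs 1 rose and 4 fell in Ireb2+/+ livers, 9.09% against 7.53%, and 2 rose and 4 fell in Ireb2-/- livers, 10.9% against 5.73%. No test was run on these shares, and single livers moved the counts: the 7 in RPFs of Aco1+/+ livers ran from 2 without ZT12 replicate 1 to 11 without ZT5 replicate 3, the 9 of Aco1-/- livers from 3 without ZT5 replicate 1 to 14 without ZT5 replicate 3, and the 5 and 6 of the Ireb2 line fell to 0 without Ireb2+/+ ZT5 replicate 1 and without Ireb2-/- ZT5 replicate 2. No listed gene was called in TE.

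In the Aco1 line, Lipg, the endothelial lipase that hydrolyses HDL phospholipids, rose by 1.64 ± 0.25 in RNA and 1.94 ± 0.25 in RPFs of Aco1+/+ livers and by 0.90 ± 0.22 and 1.74 ± 0.25 in Aco1-/- livers. Pla2g12b, which is needed to load lipid onto apolipoprotein B particles, fell by 1.02 ± 0.18 in RNA and 0.95 ± 0.17 in RPFs of Aco1+/+ livers and by 0.87 ± 0.18 and 1.02 ± 0.18 in Aco1-/- livers. Saa4, an apolipoprotein of HDL, rose in RPFs of both genotypes (0.67 ± 0.17 and 0.86 ± 0.17) and in RNA of Aco1-/- livers (0.63 ± 0.16). Apon, another apolipoprotein, which is named here after its values were seen, fell in RNA of both genotypes (-0.55 ± 0.15 and -0.52 ± 0.15), in their RPFs (-0.50 ± 0.14 and -0.51 ± 0.14) and in RPFs of Ireb2+/+ livers (-0.38 ± 0.11). Mia2, a secretory export factor, rose in RNA of Aco1+/+ livers (0.53 ± 0.14). A1cf, the RNA-binding partner of Apob mRNA editing, rose in RPFs of both genotypes of the Ireb2 line (0.51 ± 0.11 and 0.50 ± 0.11) and of Aco1-/- livers (0.57 ± 0.16). Scarb1, the HDL receptor, and Lrp1, a remnant receptor, fell in RPFs of Ireb2+/+ livers (-0.38 ± 0.10 and -0.34 ± 0.10). Lipc, the hepatic lipase, fell in RNA and RPFs of Ireb2-/- livers (-0.66 ± 0.18 and -0.53 ± 0.12), Pla2g12b in their RPFs (-0.53 ± 0.14), and Gpihbp1, the capillary anchor of lipoprotein lipase, and Nr5a2, a nuclear receptor, in their RNA (-0.83 ± 0.20 and -0.55 ± 0.15). All of these passed the edgeR test at an adjusted p under 0.05.

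The genes most like the member with the widest spread in RNA and in TE were sought over all 10696 genes. For Apoa4 RNA they were Chst7 (Pearson r = 0.70), Tmem38b (0.70) and Gas6 (0.69), and for Apoc1 TE, with an SD of 0.34 over livers, Dap (0.88), Cox6b1 (0.88) and Igf1 (0.86). Each r is over 24 livers and describes these livers only. Without Ireb2+/+ ZT5 replicate 3 the r with Apoc1 TE was 0.79 for Dap, 0.76 for Cox6b1 and 0.74 for Igf1.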

How the data were processed

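Total RNA and ribosome-protected fragments were sequenced from the same 24 livers, 48 libraries in 77 runs, 29 libraries having 2 runs. According to the methods of the study and the labels, the authors removed adapters with cutadapt 3.5, filtered reads by quality and size, discarded rRNA and tRNA reads with Bowtie2 and mapped the rest with STAR 2.70f to GRCm38. The authors deposited raw counts per gene and run, in unnamed columns without normalization; the counting tool, the strand setting and the meaning of the columns are not given in the sources used here. The column holding most RPFs was read as the CDS. Counting error is small at the depths given above, and reads of neighbouring or overlapping genes could not be checked without the strand setting.

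Runs of a library were summed, genes filtered with filterByExpr (minimum count 10, minimum total 15) and libraries scaled by the upper quartile over all 48. Each line was fitted with its 4 groups together by robust quasi-likelihood in edgeR 4.0.16 (R 4.3.3), RNA and RPF apart, and TE as a group by library term with a term for the mouse. p-values were adjusted by Benjamini-Hochberg over 10696 genes, with a threshold of 0.05; SEs were derived from the log2 change and its F statistic. The change from ZT5 to ZT12 was compared between lines in a further fit of all 8 groups, chosen after the data were seen, as were values without Ireb2+/+ ZT5 replicate 3 for TE levels and correlations. CPM and log2 TE per liver used a prior count of 0.5. Alternatives were TMM scaling, no filter, a filter of mean count 50, the first run alone, the 6 compared mice alone, RNA over all count columns, a replicate block, TE without the mouse term, limma 3.58.1 on TE per mouse, DESeq2 1.42.0 and each mouse left out. Tables and plots used Python 3.11.15, pandas 2.3.3, NumPy 2.4.6, SciPy 1.17.1 and Matplotlib 3.10.9.

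All 10 genes are counted in every comparison, with values printed for some of them and plotted for all where genotypes or times are compared, and of the pathway lists are named at most 3 genes called per comparison, those with the smallest adjusted p, to which Apon and A1cf in Aco1-/- livers were added after their values were seen; genes most alike were taken for the member of widest spread in RNA and in TE. Members and lists were chosen with earlier results of these data known. Levels per length were planned but not computed, since coding lengths were not at hand, so levels were not ranked between genes. Gene positions are from RefSeq (GRCm38.p6).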

Additional observations from a re-analysis of the deposited data

Results flagged for a closer look

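The fall of Apoc3 RPFs from ZT5 to ZT12 differed between the mouse lines, by -0.91 ± 0.18 on the log2 scale (Aco1 line minus Ireb2 line, averaged over genotypes; edgeR adjusted p = 0.00664, n = 24 livers). It was singled out because the test of the difference itself passed the threshold. That test was added after the data were seen, so its p-value is not independent of the pattern that led to it. RPFs were lower at ZT12 in both genotypes of the Aco1 line, by log2 changes of -0.70 and -1.23, and near their ZT5 level in the Ireb2 line, with changes of -0.04 and -0.07. The line cannot be told apart from the cohort.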

How the results depend on the processing

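No member was called between genotypes, or in the Ireb2 line, under any setting except Apoc3 in TE of the Aco1 line at ZT12, called with RNA over all count columns (1 member in place of 0). For the change from ZT5 to ZT12 in the Aco1 line, the 2 members called in RNA of Aco1+/+ livers became 1 (Apom lost) with a replicate block, 1 by DESeq2, 0 with RNA over all count columns, 3 (Apoe added) with the filter of mean count 50 and with the 6 compared mice alone, and 0 to 3 when 1 liver was left out. The 2 called in RNA of Aco1-/- livers became 0 with RNA over all count columns and 1 with the 6 compared mice alone, and 1 to 3 with 1 liver left out. In RPFs the count of 0 in Aco1+/+ livers became 1 without the filter, with the 6 compared mice alone and by DESeq2 and 0 to 3 with 1 liver left out; the 2 of Aco1-/- livers became 1 with the 6 compared mice alone and 1 to 5 with 1 liver left out. In TE the 0 of Aco1+/+ livers became 1 without the filter, with the 6 compared mice alone and by DESeq2 and 0 to 1 with 1 liver left out; the 0 of Aco1-/- livers became 1 without the filter, 2 with RNA over all count columns and 0 to 3 with 1 liver left out. The difference between the lines had 1 to 3 members called in RPFs, 0 to 1 in RNA and 0 to 2 in TE with 1 liver left out. With 1 liver left out, the Apoa5 RNA change in Aco1-/- livers, -0.17 with all, ran from -0.63 to 0.020, and the Apoc1 TE change in Ireb2+/+ livers, 0.35 with all, from -0.026 to 0.57. Apart from fewer livers or genes in a fit, the cause was not tested. With RNA over all count columns mean TE was 2.17 for Apoa1, 1.85 for Apoa2, 1.46 for Apoa4, 1.35 for Apoa5, 1.74 for Apoe, 2.29 for Apoh, 1.89 for Apoc3 and 1.89 for Apom, and for Apob 0.30, reversed from -0.76, while the median TE of all genes went from 0.11 to 0.03.

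Deviations of livers sharing a replicate number correlated by -0.09 to 0.13 in RNA (1 of 24 pairs over 0.1) and by -0.13 to 0.26 in RPFs (5 of 24). The highest in RPFs, 0.26 and 0.20, were replicates 3 and 1 of Aco1+/+ against Aco1-/- livers at ZT5. Replicate 3 of both genotypes also moved the RPF calls from ZT5 to ZT12 when left out. The numbers were not taken as pairs in the main fits. Besides the lost Apom call given above, the replicate block added Apoa2 in RNA of Aco1-/- livers from ZT5 to ZT12 (3 members in place of 2) and moved no other count of members called.

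Pathway genes called from ZT5 to ZT12, with the range over the alternatives in parentheses, were 4 (2 to 9) and 5 (2 to 8) in RNA and 7 (2 to 11) and 9 (3 to 14) in RPFs of Aco1+/+ and Aco1-/- livers, and 0 (0 to 2) and 3 (0 to 4) in RNA and 5 (0 to 6) and 6 (0 to 9) in RPFs of Ireb2+/+ and Ireb2-/- livers. In TE, and between genotypes, the counts of 0 reached at most 1.

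Counts over all genes were as follows. The genes called with all livers, with the lowest and highest count over the alternatives in parentheses, were, for ZT12 against ZT5 in control and knockout livers, in the Aco1 line 754 (323 to 1056) and 551 (296 to 717) for RNA, 710 (299 to 1032) and 1293 (531 to 1600) for RPFs, 2 (0 to 79) and 16 (0 to 74, and more with RNA over all count columns) for TE and in the Ireb2 line 245 (104 to 489) and 296 (128 to 486) for RNA, 805 (389 to 814) and 613 (217 to 688) for RPFs, 57 (0 to 106) and 1 (0 to 41) for TE. For knockout against control at ZT5 and at ZT12 they were, in the Aco1 line 0 (0 to 8) and 1 (0 to 51) for RNA, 1 (1 to 3) and 32 (7 to 160) for RPFs, 1 (1 to 2) and 10 (0 to 58) for TE and in the Ireb2 line 1 (0 to 7) and 2 (1 to 6) for RNA, 7 (0 to 53) and 3 (1 to 20) for RPFs, 1 (0 to 5) and 0 (0 to 19) for TE. For the difference of the changes they were in the Aco1 line 0 (0 to 3) for RNA, 0 (0 to 13) for RPFs, 3 (0 to 15) for TE and in the Ireb2 line 0 (0 to 0) for RNA, 0 (0 to 0) for RPFs, 0 (0 to 6) for TE.

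Alternatives with coding lengths 30 nt longer or shorter were not run. Depth limits RNA most, at 852293 counts in the shallowest library, and 3 livers a group limit every comparison.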
